A study of Mus musculus with 24 samples.

Results

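Insulin binds the insulin receptor, a receptor tyrosine kinase, which phosphorylates the insulin receptor substrates; these recruit phosphoinositide 3-kinase, and the kinase AKT acts downstream of it. AKT sends the glucose transporter GLUT4 to the surface of fat and muscle cells and keeps the transcription factor FOXO1 out of the nucleus, which lowers hepatic expression of FOXO1 target genes such as Igfbp1. Rev-erbα (gene Nr1d1) is a heme-binding nuclear receptor of the circadian clock that represses transcription together with the NCoR/HDAC3 corepressor complex, and in liver and fat it is known for its control of lipid and glucose metabolism. The following describes where Rev-erbα was mapped at 7 genes of insulin signalling, of 22350 protein-coding genes in the gene models used: Insr (the receptor), Irs1 and Irs2 (the substrates), Pik3r1 (the regulatory subunit p85α of phosphoinositide 3-kinase), Foxo1, Slc2a4 (GLUT4) and Igfbp1 (an insulin-like growth factor binding protein secreted by the liver). The genes were chosen by name, and every site from 20 kb upstream to 20 kb downstream of each gene body was counted.

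Of 24 mouse samples in 16 groups, those used here form 3 groups, each of C57BL/6J wild-type mice at ZT10 (zeitgeber time, 10 h after lights on), with no ages in the labels. Epididymal fat (eWAT) gave 2 Rev-erbα ChIP-seq libraries and brain, taken from the ventral tegmental area, gave 1. Liver gave 2 Rev-erbα libraries by ChIP-exo, in which an exonuclease digests the DNA as far as the bound protein, so that an entry in the list is a border of 1 bp on 1 strand. Each group had 1 deposited list, in which the eWAT list held 9016 peaks, the brain list 10687 peaks (each peak 150 bp wide) and the liver list 245360 borders. Read totals were not given and there was no value per replicate or per animal, so every value below describes these lists and no test between tissues could be made. The score of a peak and the signal of a border are the authors' own values of unstated scale, and were used only to rank sites within 1 list. The input libraries and the other groups were not analysed here, and the tissues are mixtures of cell types that binding alone does not resolve. In the same kind of window, eWAT peaks lay at all 8 adipocyte marker genes and brain peaks at 5 of them. Peaks lay at 2 of 8 neuron markers in eWAT and at 6 in brain. For 8 dopamine neuron markers the numbers were 0 in eWAT and 1 in brain. For 8 glia markers they were 2 in eWAT and 5 in brain, and for 8 hepatocyte markers 3 and 1. Over all genes, an eWAT peak was listed for 28.7% and a brain peak for 41.5%. Pairs of liver borders on opposite strands lay at all 8 hepatocyte markers, at 6 of 8 adipocyte markers and at 4 of 8 glia markers. They also lay at 3 of 8 neuron markers and 4 of 8 dopamine neuron markers, against 51% of all genes.

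Rev-erbα peaks were found at 5 of the 7 genes, with 9 peaks in eWAT and 8 in brain. Insr, Irs1, Irs2 and Foxo1 had a peak in both tissues, Pik3r1 in brain only in these lists, and Slc2a4 and Igfbp1 in neither. An eWAT peak was thus present at 4 of 7 genes, against 28.7% of all protein-coding genes with windows drawn the same way. A brain peak was present at 5 of 7, against 41.5% of all genes, and peaks of both tissues at 4 of 7, against 17.5%. Long genes have wide windows and more sites: among genes with windows of 82.5 kb or more, which include Insr, Irs1, Pik3r1 and Foxo1, an eWAT peak was listed for 45.1%, a brain peak for 53.4% and both for 29.5%. Irs2 (61.5 kb) belongs to a group of genes with windows of 55.4 to 82.5 kb, in which these shares were 31.1%, 46.3% and 18.2%, and Slc2a4 (45.6 kb) and Igfbp1 (44.8 kb) to one with windows of 44.7 to 55.4 kb, with 24.1%, 42.5% and 14.4%. Pooled over the windows of the 7 genes, 0.668 Mb in all, there were 13.5 eWAT peaks and 12.0 brain peaks per Mb. Over the genome there were 3.42 and 4.05 per Mb. The mean of the densities of single gene windows, over all genes, was 5.61 eWAT peaks and 10.2 brain peaks per Mb. That mean gives each gene equal weight, so it is not a like measure to the pooled values.

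**Figure D1:**
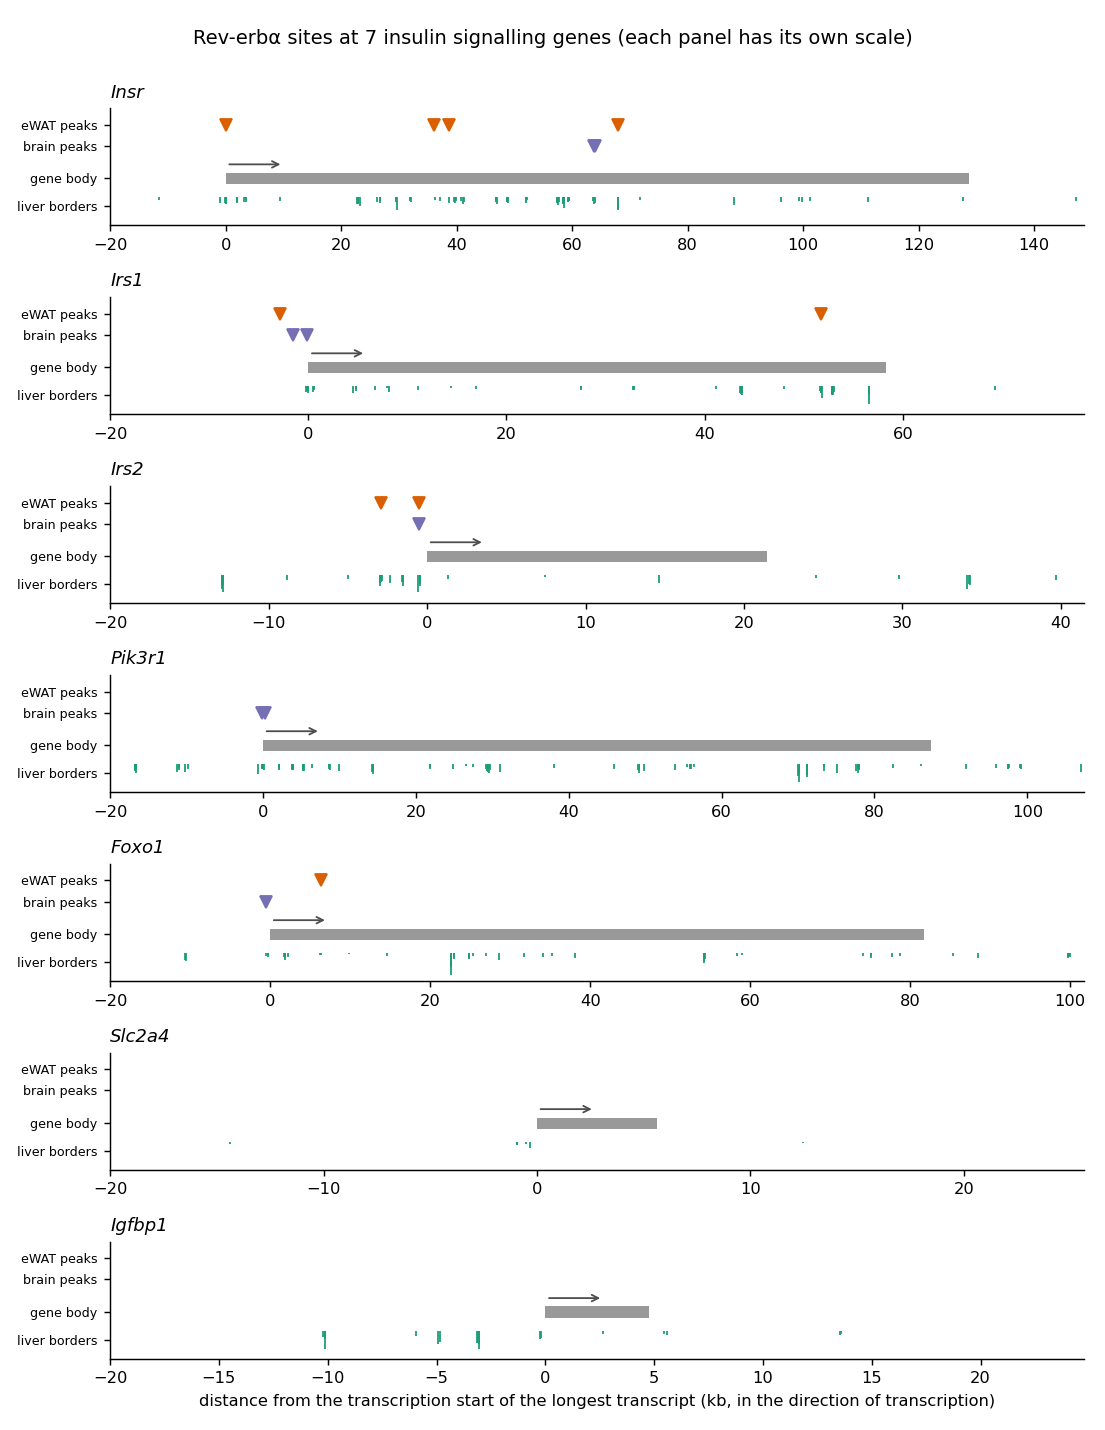
Maps of the 7 genes, with the horizontal axis giving the distance in kb from the transcription start of the longest transcript, on a scale of its own in each panel. Orange and purple triangles are eWAT and brain peaks, the grey bar is the gene body, and green ticks are liver borders whose length grows with the logarithm of the signal; the 2 brain peaks of Insr, 283 bp apart, fall on each other, and Slc2a4 and Igfbp1 have no peak in either tissue.

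The tissues differed in where on the genes their peaks lay. In eWAT, 2 of the 9 peaks lay within 1 kb of a transcription start, and in brain 5 of the 8. Over the whole lists these shares were 8.76% in eWAT and 37.9% in brain, so the order of the tissues at these genes was that of the lists. Brain peaks at the 7 genes were rich in G and C, with a median of 64.0% against 55.3% over the brain list, and held a median of 15.5 CpG dinucleotides against 4. The eWAT peaks had a median of 46.7% against 48.7% over the eWAT list, and 2 CpG dinucleotides against 2. By score, the members' eWAT peaks were spread over the list, with 4 of 9 above its median of 14.2, while 7 of the 8 brain peaks were above the brain median of 25.5. A single site was shared, at Irs2 (1 of 9 eWAT peaks against 7.83% of the list, and 1 of 8 brain peaks against 6.61%). A shared site was listed in the windows of 3.88% of all genes.

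**Figure D2:**
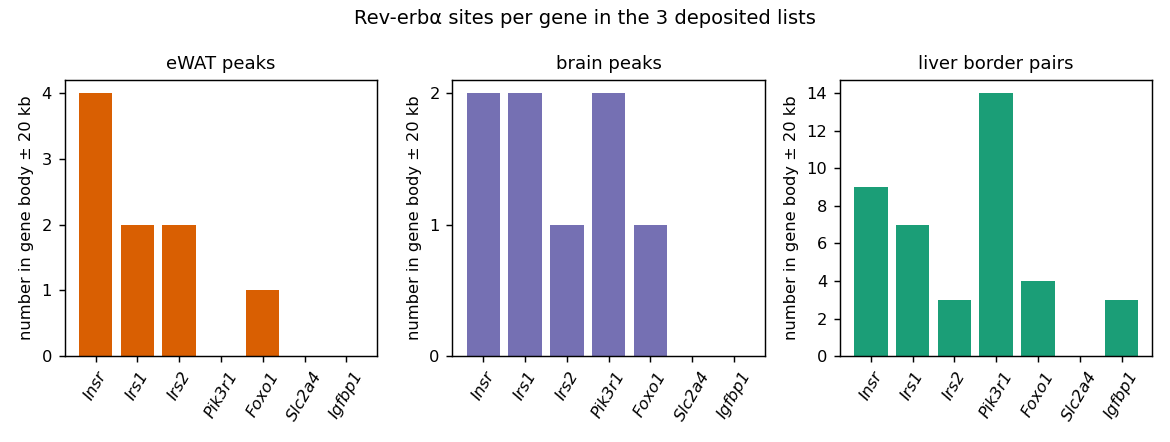
Number of eWAT peaks, brain peaks and liver border pairs (vertical axes, starting at 0) in the gene body and 20 kb on each side, for each of the 7 genes. Insr has the most eWAT peaks (4), Pik3r1 has none in eWAT and 2 in brain, and Pik3r1 has the most border pairs (14), while Slc2a4 is at 0 in all panels.

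Insr, the receptor (chr8:3150922-3279617 on mm9, minus strand, 21 exons), carried 4 eWAT peaks and 2 brain peaks, none of them overlapping. The strongest eWAT peak lay over coding exon 3, 67958 bp downstream of the start of the longest transcript (chr8:3211584-3211733, score 36.5), and ranked 635 of 9016, where the rank is 1 plus the number of peaks with a higher score. The next lay on the transcription start itself, centred 6 bp into exon 1 (chr8:3279536-3279685, score 27.4, rank 1205). The other eWAT peaks were in intron 2 and weak, with scores of 13.2 (chr8:3240855-3241004, rank 5026) and 10.1 (chr8:3243386-3243535, rank 7806), the second of them at the lowest score of the list. Both brain peaks lay in intron 2, 283 bp apart (chr8:3215552-3215701, score 32.7, rank 3030 of 10687, and chr8:3215835-3215984, score 40, rank 1821). The closer of them was 3968 bp from the exon 3 peak of eWAT. At the Insr start, where eWAT had its peak, the nearest brain peak was 63707 bp away.

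By distance, the exon 3 site is where eWAT and liver met most closely. In liver, the strongest border of the Insr window (signal 2.06, within the top 1.96% of the list) lay 14 bp from the centre of this eWAT peak, on the plus strand at position 3211645. With a minus border 32 bp further on it formed the strongest border pair of the window, whose midpoint was 2 bp from the peak centre. A further plus border 8 bp inside the first shared the same partner. The deposited p-values, of unstated test, were 0.0247 for the first plus border, 0.0415 for the further one and 0.0488 for the minus border. Each was above the limit of 0.01 applied to the liver borders below, so the border pairs of this site were lost at that limit. The peak sequences of Insr that hold one of the motif letters searched are shown here, on the plus strand of mm9, to place the C/EBP letters TTNNGCAA, a pattern of the factors that drive adipocyte and hepatocyte gene expression, relative to the peaks; motif letters are in capitals.
Insr eWAT, exon 3, rank 635: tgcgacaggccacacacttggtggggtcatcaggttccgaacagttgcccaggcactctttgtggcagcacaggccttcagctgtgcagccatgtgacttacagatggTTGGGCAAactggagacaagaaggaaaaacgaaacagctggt
Insr eWAT, intron 2, rank 5026: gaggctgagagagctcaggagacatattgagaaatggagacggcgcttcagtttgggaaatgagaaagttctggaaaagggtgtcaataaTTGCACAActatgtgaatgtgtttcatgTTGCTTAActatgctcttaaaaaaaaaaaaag
Insr eWAT, intron 2, rank 7806: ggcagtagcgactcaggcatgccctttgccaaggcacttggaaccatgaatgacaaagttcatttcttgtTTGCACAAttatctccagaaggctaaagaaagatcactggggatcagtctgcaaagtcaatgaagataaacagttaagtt
The C/EBP letters were in 3 of the 4 eWAT peaks of Insr, those printed here, and in 18.7% of all eWAT peaks. The peak at the start lacked them and held the FOX letters TGTTTAC (2.17% of eWAT peaks). These letters began at position 3279553, with the peak centre at 3279611. Neither brain peak of Insr held any of the motifs searched.

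Irs1, a substrate of the receptor (chr1:82229676-82287991, minus strand, 2 exons), had brain peaks that stood higher in their list than its eWAT peaks in theirs. The brain peak 141 bp upstream of the start (chr1:82288057-82288206) scored 61.8 and ranked 519 of 10687, the best rank of any peak at the 7 genes in either list when expressed as a share of the list (4.86%). A second brain peak lay 1591 bp upstream (chr1:82289507-82289656, score 32.7, rank 3030). The eWAT peaks of Irs1 were weak: one 2872 bp upstream of the start (chr1:82290788-82290937, score 11.1, rank 6686 of 9016) and one far down intron 1, 51745 bp from the start (chr1:82236171-82236320, score 10.1, rank 7806). The nearest peaks of the tissues were 1281 bp apart. The intronic eWAT peak lay closer to the start of the overlapping gene model Gm9747 than to that of Irs1.

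Irs2, the other substrate (chr8:10986980-11008458, minus strand, 2 exons), carried the shared site. It lay 505 bp upstream of the start in eWAT (chr8:11008888-11009037, score 33.4, rank 779) and 496 bp upstream in brain (chr8:11008879-11009028, score 43.6, rank 1451), so the peaks were 9 bp apart and overlapped by 141 bp. In both lists it stood in the upper part, at 8.64% of the eWAT list and 13.6% of the brain list. A second eWAT peak, 2907 bp upstream (chr8:11011290-11011439, score 13.2, rank 5026), had no brain counterpart, the nearest brain peak being the shared one, 2411 bp away. In liver, the strongest border of the Irs2 window (signal 3.35, top 0.628% of the list) fell inside the shared site, 37 bp from the eWAT centre, and plus-strand borders lay 35 and 66 bp to the other side. The shared site thus had borders in liver, as most of the 17 peaks had, and a score in the upper part of both peak lists.

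The promoter peaks of Irs1 and Irs2 held the same pair of sequence elements side by side. One is the E-box CACGTG, bound by basic helix-loop-helix factors, CLOCK and BMAL1 among them; the other is TGTTTTG (printed as its reverse complement), the letters of the insulin response element through which FOXO proteins act at genes such as Igfbp1. In the Irs1 brain peak both share 2 bases. There TGTTTTG begins at position 82288119 and the E-box at 82288124, to the left of the peak centre at 82288132. In the shared Irs2 site they are 1 base apart. There they begin at positions 11008960 and 11008968, on either side of the eWAT peak centre at 11008963. The sequences are given on the plus strand of mm9 with motif letters in capitals, together with the remaining Irs1 and Irs2 peaks that hold a motif.
Irs1 brain, 141 bp upstream, rank 519: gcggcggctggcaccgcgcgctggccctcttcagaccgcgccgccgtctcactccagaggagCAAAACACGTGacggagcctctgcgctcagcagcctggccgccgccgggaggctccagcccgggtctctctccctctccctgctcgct
Irs2 eWAT, shared with brain, 505 bp upstream, rank 779: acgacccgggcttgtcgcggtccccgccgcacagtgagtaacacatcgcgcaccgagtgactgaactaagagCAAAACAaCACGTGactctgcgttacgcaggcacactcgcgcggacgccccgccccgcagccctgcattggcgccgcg
Irs2 eWAT, 2907 bp upstream, rank 5026: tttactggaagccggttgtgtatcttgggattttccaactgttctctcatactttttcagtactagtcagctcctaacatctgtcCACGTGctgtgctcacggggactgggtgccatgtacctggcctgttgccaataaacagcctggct
Irs1 eWAT, 2872 bp upstream, rank 6686: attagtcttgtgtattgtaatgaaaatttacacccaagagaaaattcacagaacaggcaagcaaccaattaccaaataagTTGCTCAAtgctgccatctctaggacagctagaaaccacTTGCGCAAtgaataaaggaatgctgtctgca
Irs1 eWAT, intron 1, rank 7806: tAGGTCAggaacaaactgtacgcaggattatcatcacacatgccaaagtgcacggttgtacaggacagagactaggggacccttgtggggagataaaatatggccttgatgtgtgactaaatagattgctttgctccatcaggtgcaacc
The E-box was present in 11.4% of eWAT peaks and 8.17% of brain peaks, and the TGTTTTG letters in 4.49% and 3.57%. An E-box and these letters overlapping or within 2 bp of each other were found in 1 of 9016 eWAT peaks, that of Irs2, and in 3 of 10687 brain peaks, of which those of Irs1 and Irs2 are 2; this combination was chosen after the sequences were seen. The upstream eWAT peak of Irs2 also held an E-box, the upstream eWAT peak of Irs1 held the C/EBP letters at 2 places, and the intronic one the AGGTCA core to which Rev-erbα and other nuclear receptors bind.

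Pik3r1, the p85α regulatory subunit (chr13:102450716-102538172, minus strand), had brain peaks on both sides of its distal start and no eWAT peak. They were centred 257 bp downstream of the start, in intron 1 (chr13:102537840-102537989, score 36.4, rank 2367 of 10687), and 188 bp upstream (chr13:102538285-102538434, score 32.7, rank 3030), 445 bp apart. The nearest eWAT peak was 43900 bp from the start. The brain peaks were among the most GC-rich at the 7 genes, at 72.0% and 73.3%, and neither held a motif searched. No brain or eWAT peak lay at the starts of the shorter transcripts inside the gene, and the strongest liver pair of the gene lay upstream of one of them, as described with the liver data.

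Foxo1, the transcription factor that insulin signalling restrains (chr3:52072259-52154031, plus strand, 3 exons), had 1 peak in each tissue, 6842 bp apart. The eWAT peak lay in intron 1, 6381 bp downstream of the start (chr3:52078565-52078714, score 25.3, rank 1425 of 9016). The brain peak lay 461 bp upstream of the start (chr3:52071723-52071872, score 25.5, rank 5169 of 10687), with the same score as the list median. The Foxo1 eWAT peak was the only 1 of the 17 with the full Rev-erb/ROR response element, an AGGTCA core with an A/T-rich extension on its 5′ side, present in 3.46% of eWAT peaks and 2.16% of brain peaks. Its sequence and that of the brain peak, which held the TGTTTTG letters, are given on the plus strand with motif letters in capitals; the response element reads on the minus strand.
Foxo1 eWAT, intron 1, rank 1425: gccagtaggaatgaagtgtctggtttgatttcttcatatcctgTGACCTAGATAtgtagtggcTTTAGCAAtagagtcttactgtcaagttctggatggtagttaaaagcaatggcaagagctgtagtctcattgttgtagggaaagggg
Foxo1 brain, 461 bp upstream, rank 5169: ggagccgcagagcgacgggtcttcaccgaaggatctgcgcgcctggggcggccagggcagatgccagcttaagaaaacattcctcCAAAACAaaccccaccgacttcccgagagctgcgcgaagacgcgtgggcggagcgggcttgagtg
The response element began at position 52078608, to the left of the eWAT peak centre at 52078640, and C/EBP letters lay between it and the centre. The liver borders within 100 bp of this peak were weak, with a highest signal of 0.24, below the list median of 0.471.

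Slc2a4, the insulin-regulated glucose transporter GLUT4 (chr11:69756045-69761690, minus strand), and Igfbp1 (chr11:7097785-7102549, plus strand) had no peak in eWAT or brain in their windows. For Slc2a4 the nearest peaks were 52363 bp from the start in eWAT and 26398 bp in brain, outside the window, against medians over all genes of 84840 bp in eWAT and 53321 bp in brain. For Igfbp1 they were 483988 bp and 592121 bp away; 13.4% of all genes were as far or farther from an eWAT peak and 9.89% from a brain peak. A gene without a listed peak is one whose sites, if any, did not pass the authors' threshold at an unknown depth.

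**Figure D3:**
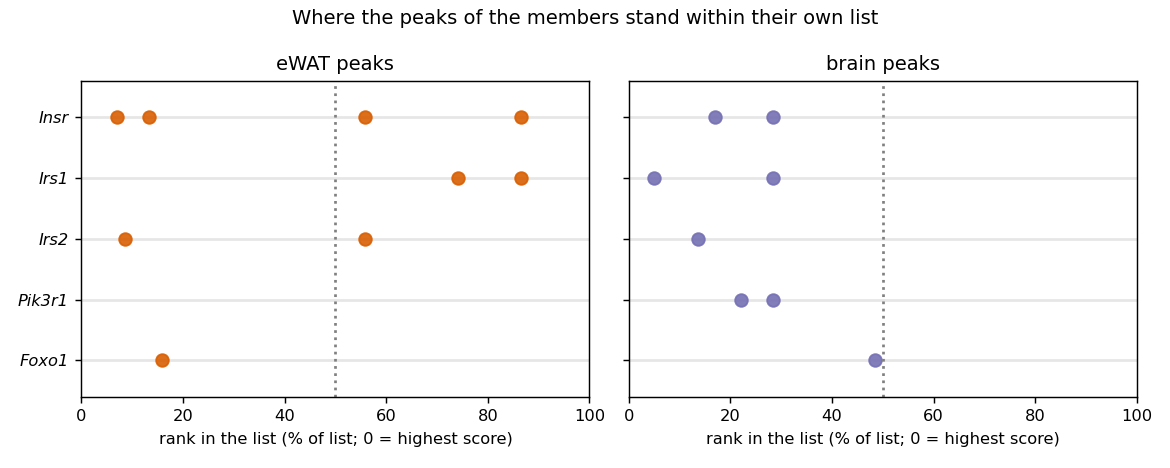
Rank of each peak at the 5 genes with peaks, as a percentage of its own list (horizontal axis, 0 is the highest score), for eWAT on the left and brain on the right; the dotted line marks the middle of the list. The eWAT peaks of Insr, Irs2 and Foxo1 include ranks between 7.04% and 15.8%, the eWAT peaks of Irs1 are both beyond 74%, and the 8 brain peaks lie between 4.86% and 48.4%.

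Motif counts over the members rest on few peaks. Of the 9 eWAT peaks, 5 held the C/EBP letters (18.7% of the list), 2 the AGGTCA core (19.0%), 2 an E-box (11.4%), 1 the Rev-erb/ROR element (3.46%), 1 the FOX letters (2.17%) and 1 the TGTTTTG letters (4.49%). Of the 8 brain peaks, 3 held TGTTTTG (3.57% of the list), 2 an E-box (8.17%) and none the C/EBP letters (5.63%), the AGGTCA core (11.7%) or the Rev-erb/ROR element (2.16%). None of the 17 held a direct repeat of the core with 1, 2 or 4 free bases (DR1, DR2, DR4), the HNF6 letters ATCAAT, the HNF4 letters CAAAGTCCA or the NF1 palindrome. These repeats, the HNF4 letters and the NF1 palindrome were in under 1% of either list. The HNF6 letters were in 3.06% of eWAT peaks and 2.83% of brain peaks. The letters were searched on both strands over the whole 150 bp; a match describes the sequence and not a bound factor.

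Liver borders were frequent at 6 of the 7 genes. All 7 windows held a border, as did 87.7% of all gene windows, and 298 borders lay in them in all. Borders on opposite strands that face each other, a plus border whose next minus border lies 5 to 60 bp downstream, were used as pairs. Such a pair was present at 6 of 7 genes, all but Slc2a4, against 51% of all genes and 62.1% of those with the widest windows. With only borders of a deposited p-value up to 0.01, a pair was present at 1 of the 7, Igfbp1, against 7.05% of all genes. That pair was the weakest of Igfbp1 (summed signal 0.656), 13552 bp downstream of its start and inside the neighbouring gene Igfbp3. The stronger Igfbp1 pairs upstream of the start did not pass this limit. Pooled, the 7 windows held 446 borders and 59.9 pairs per Mb, against 92.9 and 10.1 per Mb over the genome. The mean of the densities of single gene windows, over all genes, was 200 borders and 22.8 pairs per Mb, a measure unlike the pooled one. Pairs that share a border are counted separately. The spacing of the 40 pairs had a median of 30.5 bp, against 29 bp over all 26535 pairs, and their median summed signal was 1.42, against 1.41. The members thus had more pairs per Mb than the genome. At each of the 6 genes with a pair, the pair density was at or above that of at least 73.7% of all genes. On this scale a gene with no pair, such as Slc2a4, already stands at 49.0%. The pairs had about the same median signal as all pairs, and 8 of the 40 were in the top 10%. None of this was tested.

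Pik3r1 had the most liver sites, with 84 borders and 14 pairs. Its density of 6.59 borders per 10 kb was at or above that of 96.0% of all genes, and its pair density at or above that of 96.8%. The strongest pair (borders at chr13:102468075-102468105, 30 bp apart, summed signal 5.29, top 3.45% of all pairs) lay in intron 7 of the longest transcript, 3744 bp upstream of the start of the short transcript Pik3r1-203. The next pair lay 2654 bp upstream of that start and held an E-box, as did 12.1% of all pairs. The nearest peak of either tissue was a brain peak 69825 bp from the strongest pair. Insr had 80 borders and 9 pairs, with a density at or above that of 89.7% of genes for borders and 85.1% for pairs. Its highest signal was 2.06, and no border of it was in the top 1% of the list.

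Irs1 had 38 borders and 7 pairs, with the strongest pair in the last exon (borders at chr1:82231380-82231405, 25 bp apart, summed signal 5.11, top 3.68%), in sequence annotated as untranslated that also belongs to Gm9747, 56599 bp from the start. Irs2 had 26 borders and 3 pairs, most of them upstream: 17 borders upstream of the start, 3 in the gene and 6 downstream. Its borders had the highest median signal of the 7 genes, 1.05 against 0.471 over the list, and 12 of 26 were in the top 10%. The strongest Irs2 pair lay 12913 bp upstream (borders at chr8:11021365-11021377, 12 bp apart, summed signal 4.99, top 3.86%), 10006 bp from the nearest eWAT peak.

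Foxo1 held the single strongest liver border and the strongest pair among the members. The plus border at position 52094870 in intron 1 had a signal of 6.04, within the top 0.162% of the list, and with a minus border 29 bp downstream gave a pair with a summed signal of 8.55 (top 1.19% of all pairs), 22625 bp from the start. This pair was 16244 bp from the eWAT peak and 23086 bp from the brain peak of Foxo1. It held the AGGTCA core at 2 places, on the strand opposite to that printed, of which the first ends 13 bp before the plus border and the second begins 2 bp after the minus border. The core was present within 75 bp of the midpoint in 4 of the 40 member pairs, against 21.8% of all pairs. The TGTTTTG letters also lay within that distance at this pair, outside the stretch printed, and were present in 2 of the 40 member pairs, against 5.11% of all pairs. Igfbp1, with 18 borders and 3 pairs in a short window, had its sites upstream: 13 of 18 borders lay before the start, most of them in groups around 10.1, 4.9 and 3.1 kb upstream. The strongest Igfbp1 pair lay 3073 bp upstream (borders at chr11:7094706-7094718, 12 bp apart, summed signal 5.91, top 2.71%), and the HNF6 letters ATCAAT, those of a liver transcription factor, began 13 bp beyond its minus border; 4 of the 40 member pairs had these letters within 75 bp, against 17.5% of all pairs. A second pair lay 220 bp upstream of the start (summed signal 2.01), and the third, with a summed signal of 0.656, lay 13552 bp downstream, inside the neighbouring gene Igfbp3. The sequences of the strongest pairs of these 2 genes, from 20 bp before the plus border to 20 bp after the minus border on the plus strand of mm9, are shown with motif letters in capitals.
Foxo1 liver pair, intron 1: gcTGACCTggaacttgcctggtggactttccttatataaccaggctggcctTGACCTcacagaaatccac
Igfbp1 liver pair, 3073 bp upstream: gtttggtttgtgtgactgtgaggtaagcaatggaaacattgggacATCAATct
Slc2a4 had 6 borders and no pair. The highest of the 6 signals was 0.669, on the minus strand 328 bp upstream of the start, and 4 of the 6 lay within 1 kb upstream; 49.1% of all genes had a border density at or below that of Slc2a4.

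**Figure D4:**
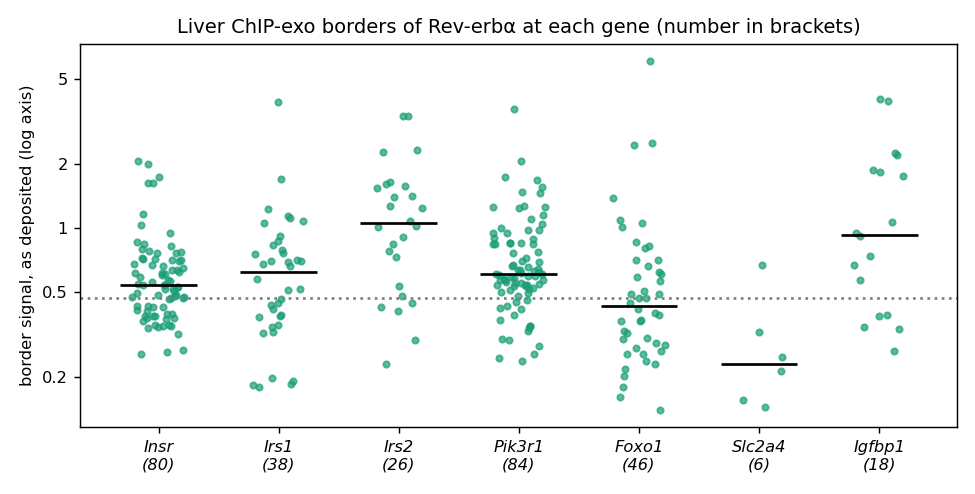
Signal of every liver border in the window of each gene (points, log axis), with the median of each gene as a bar and the median of all borders (0.471) as a dotted line. The medians of Irs2 (1.05) and Igfbp1 (0.929) are the highest, that of Slc2a4 (0.231) the lowest, and the single highest point is the Foxo1 border at 6.04.

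Most peaks of eWAT and brain at these genes had a liver border close by. Within 100 bp of their centres, 8 of the 9 eWAT peaks had a border, against 30% of the eWAT list, and so did 6 of the 8 brain peaks, against 36.4% of the brain list. The exceptions were the upstream eWAT peak of Irs1, the upstream brain peak of Irs1 and the intronic brain peak of Pik3r1, with the nearest border 2673, 1392 and 127 bp away. Among the borders within 100 bp of a peak, only those at the eWAT and brain peaks of Foxo1 had a deposited p-value up to 0.01. Their signals were 0.162 and 0.24 at the eWAT peak and 0.258 at the brain peak. The shares of the whole lists at that limit were not computed. The windows of these genes were also dense in borders away from peaks, as given above, and the part of that density in these counts was not tested. Of the 40 border pairs, 6 had their midpoint within 100 bp of an eWAT peak and none within 100 bp of a brain peak. They lay at the Insr exon 3 peak (2 pairs), at the Insr start (1), at the upstream eWAT peak of Irs2 (2) and at the intronic eWAT peak of Irs1 (1), the last 2 sites being of low score in eWAT. At the Insr exon 3 peak and at the Irs2 peak, the 2 pairs share a minus border. The shares of all pairs near an eWAT or a brain peak were not computed, so these counts have no baseline. The strongest pairs of Irs1, Irs2, Pik3r1, Foxo1 and Igfbp1 were all more than 4 kb from any eWAT or brain peak.

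**Figure D5:**
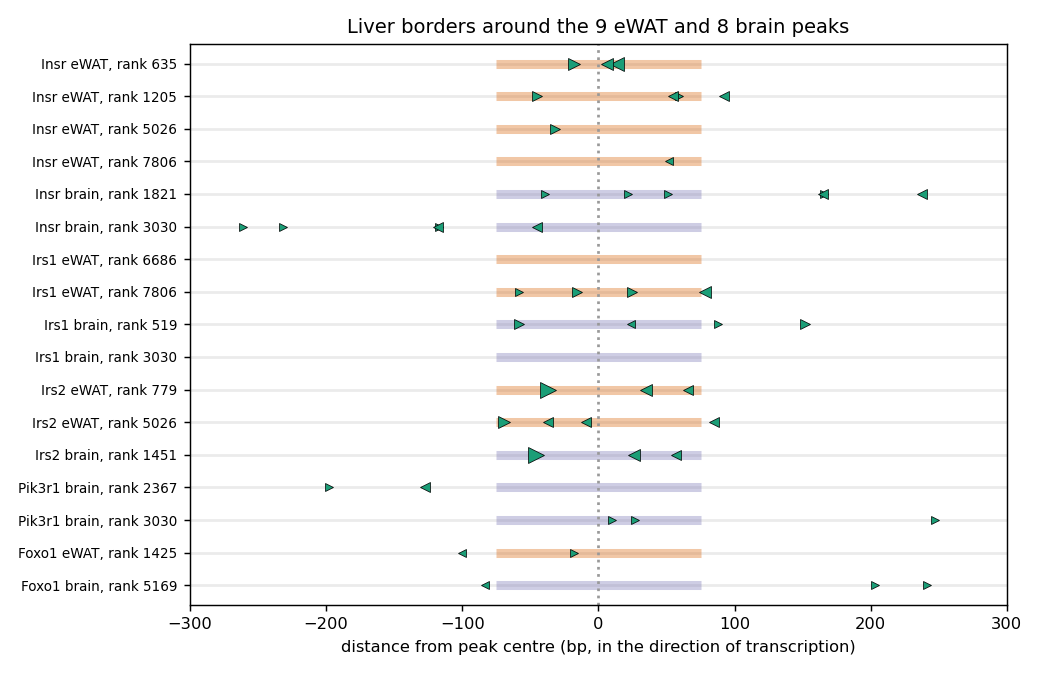
Liver borders around each of the 17 peaks, with distance from the peak centre in the direction of transcription on the horizontal axis and 1 line per peak; orange and purple bars are the 150 bp of eWAT and brain peaks, and green triangles are borders, pointing right on the strand of the gene and left on the other, larger for a higher signal. The borders of highest signal fall at the shared Irs2 site (3.35) and the Insr exon 3 site (2.06), and 2 peaks of Irs1 have no border in view.

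The wider pathway was read from a list of 56 further genes of insulin and insulin-like growth factor signalling, all matched in the gene models. Of these, 28 had an eWAT peak (50.0%, against 28.7% of all genes), 40 a brain peak (71.4%, against 41.5%) and 45 a liver border pair (80.4%, against 51%). A further count, of genes with a peak in neither eWAT nor brain, was 8. Among all genes, 33.4% had no peak and no pair, and another 13.9% had a pair but no peak. The median window of the 56 genes was 82.9 kb, wider than the 55.4 kb of all genes. High-ranking eWAT peaks of the list included those of Irs3, a further receptor substrate of rodents (rank 32, 6970 bp upstream of its start), and Foxo3, a paralog of Foxo1 (rank 365, intron 2). Peaks of Igf1r, the insulin-like growth factor receptor (rank 721), and Sh2b2, an adaptor (rank 1127), stood lower. In brain, high-ranking peaks included those of Irs3 (rank 88), Tbc1d1, a Rab GTPase-activating protein (243), Foxo3 (519), Igf1r (946) and Pik3r2, the p85β subunit (1166). The Irs3 site was shared between eWAT and brain, and in each list it ranked above every peak of the 7 genes. By presence in the 3 lists and by the rank of the best peak, Foxo3 was among the 2 listed genes most like Insr and among the 2 most like Irs2, those most like Irs1 were Sh2b1 and Grb10, and those most like Foxo1 were Mtor and Igfbp4. Only genes with the same presence or absence in all 3 lists were compared, and ranks were those in eWAT and brain. The likeness was loose for Irs1, whose best brain peak ranked 519, against 4034 for Sh2b1 and 5169 for Grb10. For Pik3r1, which has a brain peak only, Grb2 and Rps6kb1 had a best brain peak of the same rank, 2367.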

How the data were processed

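The 3 files hold 1 list per group, as deposited. The authors' peak files give 150 bp intervals with a score of unstated unit. The border file carries, per the file headers, a signal and a p-value for each border, of unstated scale and test; the deposited p-values run from 0.00503 to 0.05. The submitters' processing notes name mm9, Bowtie 0.12.8 for ChIP-seq, Bowtie 1.1.1 for ChIP-exo and HOMER, without roles; caller settings, input use and pooling: not given in the sources used here.

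All peaks and borders fit the mm9 chromosome lengths. Sites were placed in windows by their central base with GENCODE vM1 models (22350 protein-coding genes on chromosomes 1 to 19 and X), distances were taken to the start of the longest coding transcript unless another is named, and sequences came from the mm9 genome (Python 3.11.15, pysam 0.24.0). Tied scores share a rank. An overlap of 1 bp or more made a peak shared. The counting steps were checked on simulated data. No test was made, since no group has values per replicate; intervals were not given, as depth is unknown.

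The members, the pathway and marker lists and the motifs were chosen with earlier results of these data known. Every peak of the members is named; of the pathway list, up to 6 genes per tissue by rank, of which some are not reported here. Peaks over annotated untranslated sequence are not printed. Window, score, overlap, border and motif settings were varied.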

Additional observations from a re-analysis of the deposited data

How the results depend on the processing

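The counts of members with a site were stable to most settings, each changed alone: with 10 kb instead of 20 kb on each side, with any base of a peak in the window, or with the member required to have the nearest start, eWAT peaks lay at 4 members and brain peaks at 5. With 50 kb on each side, the brain peaks numbered 14 instead of 8 and the shared peaks 2 instead of 1; 4 of the added brain peaks were near Slc2a4, and members with an eWAT or a brain peak became 5 and 6. Counting only sites within 10 kb of a start left 5 of the 9 eWAT peaks and no brain peak at Insr, and counting only peaks above the list median left 4, with none at Irs1, and no brain peak at Foxo1. Borders with a p-value up to 0.01 gave a pair at 1 member, Igfbp1, instead of 6. It was the weak pair 13552 bp downstream of the Igfbp1 start, and the pairs upstream of that start were lost. The limit of 0.01 keeps 32.6% of all borders and 59 of the 298 in the member windows, and 7.05% of all genes then had a pair. The median signal was 0.418 for the borders it keeps and 0.497 for the others. In the central part of the eWAT peaks alone, the AGGTCA core was found in 1 peak instead of 2 and the FOX letters in 0 instead of 1. No paired analysis was possible because each group has 1 list, and for the same reason no replicate could be left out. Depth is unknown, so an unlisted site is not shown to be unbound.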
